A study of Homo sapiens with 4 samples.

Results

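The genes described here are 10 negative regulators and read-outs of the RAS to ERK kinase pathway, chosen by symbol with earlier results of these data known. They are the dual specificity phosphatase genes DUSP1, DUSP4, DUSP5, DUSP6, DUSP7 and DUSP9, the inhibitor genes SPRY2, SPRY4 and SPRED2, and the transcription factor gene ETV4. All 10 were found among the 26603 genes of the deposited table, each as a single row. The samples were PLC8024 cells, an established human liver cancer line, in 2 libraries labelled drug and 2 labelled control, all from the same line. The agent, its dose and the exposure time are not in the labels. The labels also leave unsaid whether libraries of a group are separate cultures, and p-values then reflect the spread between these libraries alone, which may be technical. Levels are in FPKM, fragments normalised to exon length and to the total of the library, and a pair of values of a group is for its libraries 1 and 2 in that order.

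ERK, the last kinase of the cascade that runs from growth factor receptors through RAS, RAF and MEK, turns on genes that switch the cascade off again. Dual specificity phosphatases of the MAP kinase phosphatase group remove phosphate from both the threonine and the tyrosine of an active MAP kinase. DUSP1, DUSP4 and DUSP5 are mainly nuclear and are induced by growth factors or stress, while DUSP6, DUSP7 and DUSP9 are mainly cytoplasmic and prefer ERK. Sprouty and Spred proteins act higher up, at the level of RAS and RAF, and ETV4 is an ETS family factor whose transcription ERK activity raises. The levels of several of these transcripts are commonly read as a measure of ERK output in tumour cells.

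With drug, PLC8024 cells held less DUSP9, DUSP6, ETV4 and SPRED2 RNA and slightly more DUSP1 RNA. In bulk RNA, fewer cells with a transcript and less of it per cell cannot be told apart. DUSP9 stood apart in size, at 55.8% below the control mean, while DUSP6, ETV4 and SPRED2 were 19.8%, 18.5% and 12.2% below it. DUSP1, the most abundant of the 10, was 12.8% above it. DUSP4, DUSP5, DUSP7, SPRY2 and SPRY4 did not pass the test. That test was limma on log2(FPKM + 1) with Benjamini-Hochberg adjustment over the 11227 genes whose mean reached 1 FPKM with drug or in control, and all 10 passed this filter. At an adjusted p under 0.05 it called 1 of the 10 as higher and 4 as lower, beside 7.78% of all genes tested called as higher and 6.02% as lower. An unadjusted p under 0.05 was reached by 6 of the 10, beside 33.1% of all genes tested. EdgeR on reads recovered per library called 0 of the 10 as higher and 5 as lower (the same 4 and DUSP4), beside 8.37% and 11.0% of all genes tested. The authors' deposited table has 1 of the 10 as higher and 5 as lower at that threshold, beside 815 and 1017 of the 11227 genes tested here. Over all its 26603 genes, which include those below the filter, the shares were 3.18% and 4.03%. The median log2 fold change was -0.17 over the 10 genes and 0.04 over all genes tested. Both drug libraries lay below both controls for 7 of the 10 and above them for 1 (DUSP1), beside 23.3% and 40.3% of all genes tested. Since the 10 were chosen with earlier results of these data known, these counts are no test of the set against all genes. With 1 library left out, the genes called were DUSP9 alone without control 1, DUSP9 and DUSP6 without control 2 or drug 1, and DUSP9 and ETV4 without drug 2.

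**Figure D1:**
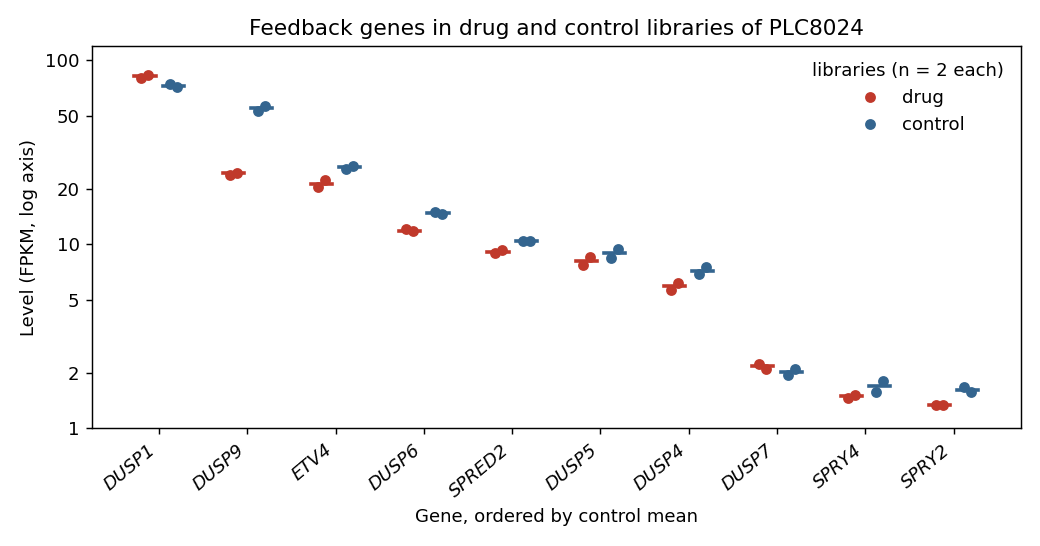
Levels of the 10 genes in each library (points, FPKM on a log axis) with the group mean (short line), drug in red left of control in blue. DUSP9 shows the widest gap, with drug libraries at 23.9 and 24.6 FPKM and control libraries at 53.1 and 56.7 FPKM.

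Recovered reads assigned to genes totalled 40279560 and 38685856 in the drug libraries and 28526098 and 38611635 in the control libraries, so control 1 was the shallowest. As a check of the cell type, 6 of 8 hepatocyte markers reached 1 FPKM in every library, with a summed level of 426 and 403 FPKM with drug against 700 and 693 FPKM in control. TTR and APOB, which encode secreted hepatocyte proteins, were at or near 0 in all libraries. Of 9 markers of fibroblasts, endothelium and blood, 7 had rows here and only PECAM1, an endothelial adhesion gene, reached 1 FPKM, while the summed level of these markers was 2.80 and 3.04 FPKM with drug and 5.31 and 4.69 FPKM in control. Both sums were lower in the drug libraries, and each was carried largely by 1 gene. The fibrinogen gene FGB had 295 and 274 FPKM with drug against 556 and 549 FPKM in control. Of 6 hepatocyte markers tested, limma called 4 as lower and 1 as higher, beside 6.02% and 7.78% of all genes tested. Besides FGB, the lower ones were ALB, TF and APOA1 (limma adjusted p = 0.00391, 0.0109 and 0.0397). ALB, the albumin gene, was low in all libraries, at 1.31 and 1.32 FPKM with drug and 3.15 and 3.23 FPKM in control. The hepatocyte factor gene HNF4A was higher (25.4 and 25.5 FPKM with drug, 22.5 and 22.3 FPKM in control, limma adjusted p = 0.021). SERPINA1 was not called (log2 fold change 0.01). PECAM1 had 2.09 and 2.23 FPKM with drug against 4.66 and 4.11 FPKM in control, while PDGFRB, a fibroblast and pericyte receptor gene, was below the filter at 0.626 and 0.598 FPKM with drug and 0.359 and 0.327 FPKM in control. The part of these markers in the results on the 10 genes was not tested.

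Among the mainly nuclear phosphatases, DUSP1 encodes an enzyme that acts on the stress kinases p38 and JNK as well as ERK. The gene (ENSG00000120129) lies on chromosome 5 at 172768090 to 172771195 (GRCh38, minus strand). Its level was 80.8 and 83.6 FPKM with drug, from 6555 and 6509 reads, and 74.3 and 71.4 FPKM in control, from 4269 and 5552 reads. Both drug libraries lay above both controls, with a log2 fold change of 0.17 ± 0.03 (SE; 95% interval 0.09 to 0.26, limma adjusted p = 0.0344). The rise is small and its call depends on the test: edgeR on recovered reads gave an adjusted p of 0.055 and DESeq2 on the same reads 0.0319, while limma on FPKM scaled by TMM, a between-library normalization, gave 0.0638. It ranged from 0.072 to 0.142 with 1 library left out, so the call was lost without control 1, control 2, drug 1 or drug 2. In the authors' deposited table DUSP1 has a log2 fold change of 0.14 with an adjusted p of 0.0107.

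DUSP4, a phosphatase for ERK and JNK, had 5.64 and 6.20 FPKM with drug and 6.87 and 7.49 FPKM in control. The drug values lay below the controls without overlap, but the log2 fold change of -0.24 ± 0.06 (SE; 95% interval -0.40 to -0.08) missed the threshold in limma (adjusted p = 0.0679). It passed with edgeR on recovered reads (log2 fold change -0.32, adjusted p = 0.00563), and the authors' deposited table gives -0.32 with an adjusted p of 0.000267. The ERK-selective phosphatase gene DUSP5 had 7.70 and 8.57 FPKM with drug and 8.42 and 9.45 FPKM in control, so the groups overlapped. Its interval of -0.31 to 0.07 on the log2 scale holds 0, and its limma adjusted p was 0.311. Read counts behind these values were 1426 to 2103 per library for DUSP4 and 609 to 925 for DUSP5.

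The mainly cytoplasmic phosphatases behaved unequally. DUSP9 (ENSG00000130829), whose product is abundant in placenta and has been tied to insulin sensitivity in mice, lies on chromosome X at 153642492 to 153651326 (GRCh38, plus strand). Its level was 23.9 and 24.6 FPKM with drug and 53.1 and 56.7 FPKM in control, so the groups were far apart. With 2668 and 2637 reads in the drug libraries and 4191 and 6067 reads in the control libraries, its log2 fold change was -1.15 ± 0.04 (SE; 95% interval -1.25 to -1.04, limma adjusted p = 0.00082). Any drug library held between 0.422 and 0.464 of the DUSP9 level of any control library. Only 0.125% of the 11227 genes tested had a lower log2 fold change on the FPKM + 1 scale, which shrinks changes of genes at low levels. With edgeR on recovered reads, DUSP9 was at -1.22, while the low-level genes LIF and ALB were at -1.58 and -1.32. DUSP9 was called as lower with each of the 4 libraries left out, with adjusted p-values between 0.00532 and 0.00751.

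DUSP6 (ENSG00000139318), a phosphatase widely used as a marker of ERK activity, lies on chromosome 12 at 89347232 to 89353271 (GRCh38, minus strand). It had 12.1 and 11.8 FPKM with drug and 15.0 and 14.7 FPKM in control, with no overlap. Its log2 fold change was -0.30 ± 0.03 (SE; 95% interval -0.38 to -0.21, limma adjusted p = 0.00964). Its reads were 1874 and 1768 with drug and 1656 and 2196 in control. Without control 1 or drug 2 the call was lost (adjusted p = 0.056 and 0.057), while edgeR on recovered reads gave an adjusted p of 0.000654. DUSP7, the third ERK-preferring enzyme and the one with the lowest level, had 2.24 and 2.09 FPKM with drug and 1.95 and 2.11 FPKM in control, and these overlapped. Its log2 fold change was 0.06 (95% interval -0.12 to 0.24, limma adjusted p = 0.567). The interval of DUSP9 lies wholly below those of DUSP6 and DUSP7, although a difference between genes was not itself tested.

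**Figure D2:**
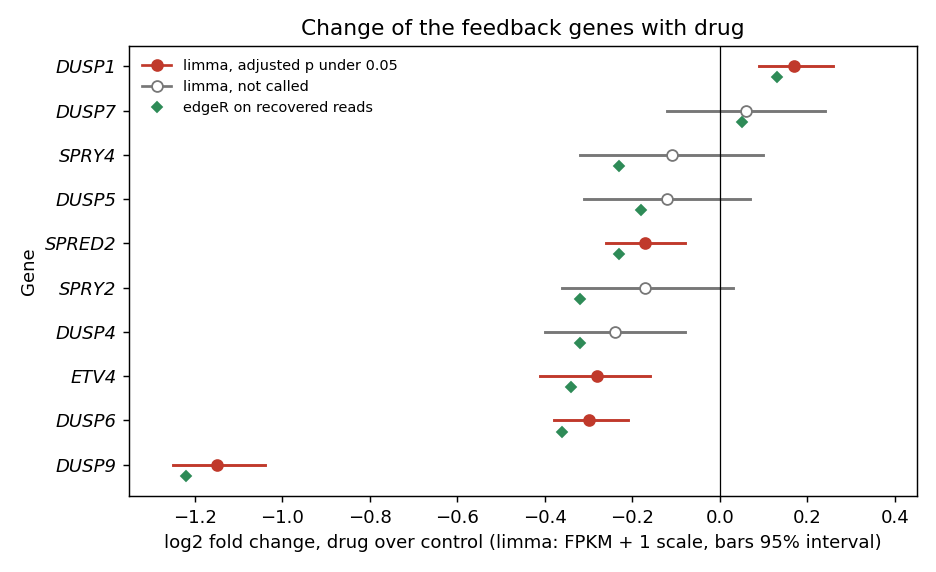
Log2 fold change of drug over control for the 10 genes, with limma estimates and 95% intervals (circles, filled red where the adjusted p is under 0.05) and edgeR estimates from recovered reads (diamonds). DUSP9 at -1.15 lies far below DUSP6 at -0.30 and ETV4 at -0.28, and DUSP1 at 0.17 is the single filled circle right of 0.

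Promoter sequence is shown for the gene that rose and for the pair with the lowest fold changes. RefSeq windows of 250 bases before to 50 bases after a start (GRCh38.p14) matched 7 of the 10 genes, with 11 windows in all since some genes have several starts. DUSP1, which was higher with drug, and DUSP9 and DUSP6, which were lower, are shown with capitals marking a match to any of 4 motifs searched on both strands: the ETS motif CCGGAA, the AP-1 motif TGANTCA, the cyclic AMP response element TGACGTCA and the CArG box of serum response factor. DUSP9 has 2 annotated starts, and gene-level values cannot tell which of them was used.
DUSP1 (chr5:172771146-172771445, minus strand): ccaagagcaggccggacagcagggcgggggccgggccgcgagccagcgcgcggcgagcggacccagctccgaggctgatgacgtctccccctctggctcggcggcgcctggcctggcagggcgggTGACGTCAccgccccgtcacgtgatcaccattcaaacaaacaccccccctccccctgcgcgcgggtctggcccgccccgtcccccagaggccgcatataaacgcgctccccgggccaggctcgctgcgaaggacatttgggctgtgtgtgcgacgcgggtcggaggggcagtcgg
DUSP9, upstream start (chrX:153642191-153642490, plus strand): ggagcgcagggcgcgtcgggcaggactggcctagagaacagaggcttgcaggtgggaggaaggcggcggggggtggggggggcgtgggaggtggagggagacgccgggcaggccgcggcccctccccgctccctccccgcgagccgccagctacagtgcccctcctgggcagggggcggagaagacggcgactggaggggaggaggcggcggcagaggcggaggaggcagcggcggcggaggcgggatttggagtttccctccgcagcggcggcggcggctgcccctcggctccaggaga
DUSP9, downstream start (chrX:153646953-153647252, plus strand): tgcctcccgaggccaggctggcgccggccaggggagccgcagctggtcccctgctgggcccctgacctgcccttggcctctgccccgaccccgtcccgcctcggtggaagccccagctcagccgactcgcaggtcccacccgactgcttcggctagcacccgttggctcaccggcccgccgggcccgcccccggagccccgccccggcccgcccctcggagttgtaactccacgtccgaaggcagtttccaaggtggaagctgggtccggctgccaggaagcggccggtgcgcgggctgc
DUSP6 (chr12:89352452-89352751, minus strand): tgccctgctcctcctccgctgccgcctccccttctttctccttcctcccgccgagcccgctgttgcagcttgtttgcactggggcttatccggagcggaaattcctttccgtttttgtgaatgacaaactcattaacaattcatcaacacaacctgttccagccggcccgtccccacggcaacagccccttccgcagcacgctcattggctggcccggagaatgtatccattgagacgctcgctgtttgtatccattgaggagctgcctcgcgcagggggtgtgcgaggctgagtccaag
The DUSP1 window holds 1 match, a full cyclic AMP response element at bases -125 to -118 from the start, which 1.85% of 35116 promoter windows hold. Neither DUSP9 window nor the DUSP6 window holds any of the 4 motifs, which says only that these letters are not within it. Across the 11 windows, the ETS motif was in 1 (SPRY2), the AP-1 motif in 1 (SPRED2) and the CArG box in 0, beside 17.2%, 7.71% and 1.29% of all windows. The DUSP9 windows are rich in G and C, at 76.3% and 75.3%, against 58.3% for DUSP6 and a median of 58.7% over all windows. This is not particular to DUSP9: the DUSP7 window is at 78.0% and the DUSP1 window at 73.3%.

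Shares and ratios of phosphatase transcripts within a library do not depend on scaling between libraries, while the summed levels given here do. Of the MAP kinase phosphatase genes, 8 had rows here, and their summed level was 134 and 139 FPKM with drug and 161 and 164 FPKM in control. DUSP1 made up 60.2% of this sum in both drug libraries, against 46.2% and 43.6% in the controls. DUSP9 made up 17.8% and 17.7% with drug, against 33.0% and 34.7% in control. In level per length, DUSP1 was 3.38 and 3.40 times DUSP9 in drug libraries and 1.40 and 1.26 times DUSP9 in control libraries. The share of DUSP6 was 8.98% and 8.53% with drug and 9.35% and 9.00% in control. Summed, the ERK-preferring DUSP6, DUSP7 and DUSP9 came to 38.2 and 38.5 FPKM with drug against 70.0 and 73.6 FPKM in control, while the nuclear DUSP1, DUSP4 and DUSP5 came to 94.2 and 98.3 FPKM with drug against 89.6 and 88.4 FPKM in control. Single genes carried these sums: DUSP9 made most of the first difference, in which DUSP7 was at a ratio of 1.07, and in the second DUSP1 was higher while DUSP4 and DUSP5 were at 0.824 and 0.910 of control. The sums are descriptions with no test.

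**Figure D3:**
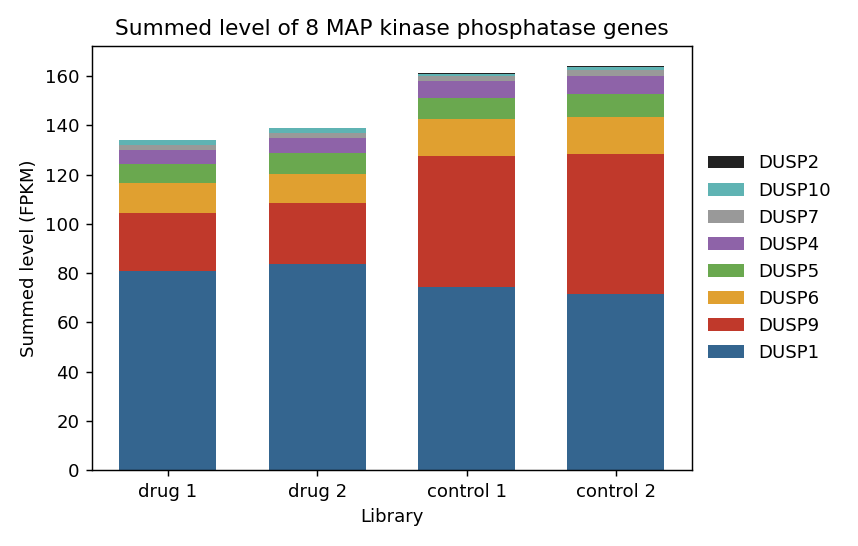
Summed level (FPKM, linear axis from 0) of 8 MAP kinase phosphatase genes in each library, stacked by gene. The red DUSP9 block is 17.8% and 17.7% of the bar in the drug libraries and 33.0% and 34.7% in the control libraries, and the blue DUSP1 block is the largest in every library.

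Among the Sprouty and Spred genes SPRED2 alone passed the test. SPRED2 (ENSG00000198369), whose product brings neurofibromin to the membrane to shut down RAS, lies on chromosome 2 at 65310851 to 65432637 (GRCh38, minus strand). It had 8.99 and 9.32 FPKM with drug and 10.4 FPKM in both controls. Both drug libraries lay below both controls, and the log2 fold change of -0.17 ± 0.04 (SE; 95% interval -0.26 to -0.08) passed limma narrowly (adjusted p = 0.0446). The call was lost without control 1, control 2, drug 1 or drug 2 (adjusted p between 0.114 and 0.155), while edgeR on recovered reads gave 0.00465. SPRY2, a Sprouty that restrains receptor signalling to RAS, had 1.34 FPKM in both drug libraries, against 1.67 and 1.58 FPKM in control, from 153 to 196 reads per library. Its interval was -0.36 to 0.03 and its limma adjusted p was 0.200. SPRY4, which inhibits the step from receptor to RAF, had 1.46 and 1.51 FPKM with drug and 1.58 and 1.81 FPKM in control. Its interval was -0.32 to 0.10 and its limma adjusted p was 0.387. Neither SPRY2 nor SPRY4 overlapped between groups, and at these low levels the FPKM + 1 scale understates a change: as ratios of mean FPKM they were at 0.822 and 0.878 of control.

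ETV4 (ENSG00000175832), a PEA3 subfamily transcription factor and a common read-out of ERK activity, lies on chromosome 17 at 43527844 to 43579620 (GRCh38, minus strand). It had 20.5 and 22.3 FPKM with drug and 25.6 and 26.8 FPKM in control, from 2571 to 3641 reads per library. The groups did not overlap, and the log2 fold change was -0.28 ± 0.05 (SE; 95% interval -0.41 to -0.16, limma adjusted p = 0.0276). The call was lost without control 1 (adjusted p = 0.0761), control 2 (0.0952) or drug 1 (0.0808), while edgeR on recovered reads gave 0.000887. ETV4 overlaps DHX8 on the other strand, and since the strand setting of the counting is not given in the sources used here, reads of the 2 genes may not have been told apart. DHX8 had 8.97 and 8.90 FPKM with drug and 9.59 and 9.22 FPKM in control (limma adjusted p = 0.287). DUSP1, DUSP6 and SPRY4 also have antisense or small RNA genes on the other strand, and SPRED2 shares its strand with an overlapping annotated gene.

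**Figure D4:**
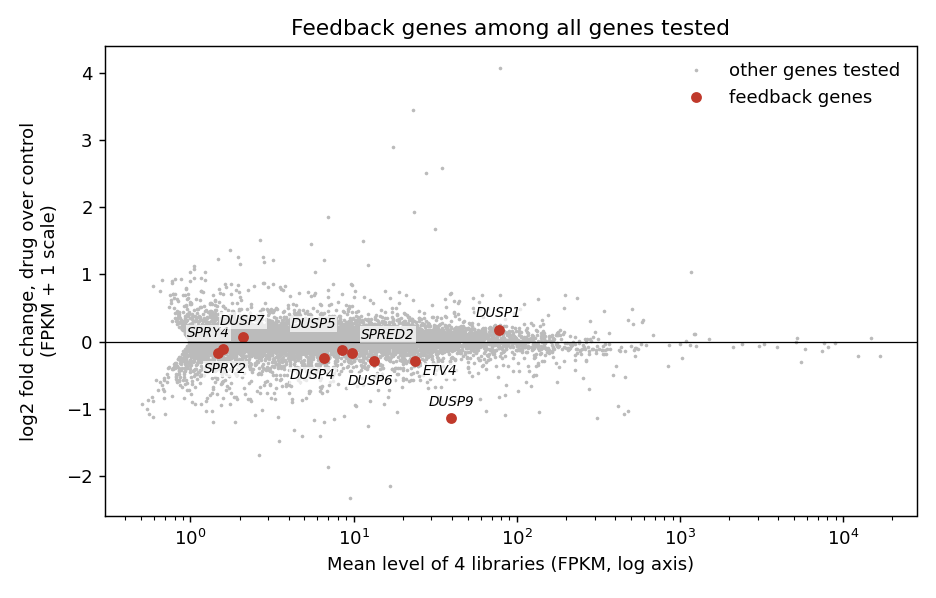
Mean level of the 4 libraries (FPKM, log axis) against the log2 fold change of drug over control for 11227 genes tested, with the 10 feedback genes in red. DUSP9 lies at the lower edge of the cloud for its level, and the other 9 lie within it, between -0.30 and 0.17.

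Of the nearest relatives of the 10 genes, DUSP10, SPRY1 and SPRED1 could be tested, and 0 were called in limma or edgeR, with 0 at an unadjusted p under 0.05. Among the other MAP kinase phosphatases, DUSP10, which acts on JNK and p38, had 1.76 and 1.78 FPKM with drug and 1.08 and 1.55 FPKM in control (limma adjusted p = 0.188). DUSP2 was below the filter at 0.103 and 0.107 FPKM with drug and 0.109 and 0.188 FPKM in control. DUSP8 and DUSP16 had no row here under those symbols. Of 9 atypical dual specificity phosphatase genes, which lack a MAP kinase binding domain, 4 were tested and 0 were called in limma (0 also with edgeR, and 0 at an unadjusted p under 0.05). SPRY1 had 3.39 and 3.35 FPKM with drug and 3.29 and 3.12 FPKM in control, and SPRED1 had 3.16 and 3.51 FPKM with drug and 3.53 and 3.28 FPKM in control (limma adjusted p = 0.517 and 0.830). SPRED3 had 0.212 and 0.150 FPKM with drug and 0.191 and 0.194 FPKM in control, and SPRY3 was at or near 0 in all libraries. The ETV4 relatives ETV1 and ETV5 were both below the filter. ETV1 had 0.497 and 0.490 FPKM with drug and 0.694 and 0.799 FPKM in control, and is lower in the authors' deposited table (log2 fold change -0.63, adjusted p = 0.0172). ETV5 had 0.636 and 0.801 FPKM with drug and 0.753 and 0.727 FPKM in control.

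In the cascade itself, limma called 2 of 16 genes as higher and 0 as lower, beside 7.78% and 6.02% of all genes tested. Of the 16, 5 were at an unadjusted p under 0.05, beside the 33.1% of all genes tested. SOS1, the exchange factor that loads RAS with GTP and so acts opposite to the Sprouty and Spred brakes, had 12.7 and 13.0 FPKM with drug and 6.98 and 6.57 FPKM in control. The ratio of the group means was 1.90, with a log2 fold change of 0.84 ± 0.04 (SE) and an adjusted p of 0.00147 in limma, and SOS1 was called with each library left out. ARAF, a RAF family kinase, had 18.8 and 18.4 FPKM with drug and 15.7 FPKM in both controls (limma adjusted p = 0.0148), a call lost without control 1, control 2, drug 1 or drug 2 (0.0619 to 0.0756). MAPK3, which encodes an ERK kinase (8.90 and 8.96 FPKM with drug, 9.36 and 10.3 FPKM in control), did not pass, nor did the MEK genes MAP2K1 and MAP2K2. The median log2 fold change of the 16 was 0.02. EdgeR on recovered reads also called HRAS as higher, and the authors' deposited table lists PTPN11 as lower. These were picked out after their values were seen. HRAS is uncertain: its reads were 52 and 313 with drug and 14 and 14 in control, so drug 2 stood far above drug 1, and its limma adjusted p was 0.178.

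Of 8 tested genes among other brakes on the pathway, 2 rose and 1 fell in limma, beside 7.78% and 6.02% of all genes tested. An unadjusted p under 0.05 was reached by 4 of the 8, beside 33.1% of all genes tested. PEA15, which holds ERK in the cytoplasm, had 36.6 and 34.9 FPKM with drug and 27.5 and 29.3 FPKM in control (limma adjusted p = 0.0153). RASAL2, a RAS GTPase activating protein gene, had 4.25 and 4.47 FPKM with drug and 3.57 and 3.31 FPKM in control (limma adjusted p = 0.0421). PEBP1, the RAF kinase inhibitor protein gene and the most abundant of this list, had 247 and 234 FPKM with drug and 294 and 292 FPKM in control (limma adjusted p = 0.0114). Drug and control values did not overlap for these 3. Of the 9 brakes listed, both drug libraries lay above both controls for 4 and below them for 3, beside 40.3% and 23.3% of all genes tested. EdgeR on recovered reads also called the ubiquitin ligase gene CBL as lower (adjusted p = 0.0454, limma 0.252). PEBP1 lost its call without control 1 (adjusted p = 0.0608), PEA15 without control 1, drug 1 or drug 2 (0.0501 to 0.0699), and RASAL2 with any of the 4 libraries left out (0.0962 to 0.163) or with TMM-scaled FPKM (0.0557). The neurofibromin gene NF1 was below the filter, at 0.235 and 0.398 FPKM with drug and 0.262 and 0.118 FPKM in control.

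Other genes that ERK is known to drive went both ways. Of 11 tested, 4 fell and 2 rose in limma, beside 6.02% and 7.78% of all genes tested, and 5 were not called. An unadjusted p under 0.05 was reached by 9 of the 11, beside 33.1% of all genes tested. The median log2 fold change of the 11 was 0.06. FOS, an AP-1 subunit gene, had 20.6 and 20.1 FPKM with drug and 32.9 and 28.5 FPKM in control. LIF, a cytokine gene, had 0.340 and 0.574 FPKM with drug and 1.39 and 1.26 FPKM in control. The sphingosine kinase gene SPHK1 had 3.14 and 3.10 FPKM with drug and 4.38 and 4.19 FPKM in control. CCND1, which encodes cyclin D1, had 36.4 and 37.1 FPKM with drug and 42.9 and 43.4 FPKM in control. All 4 were lower in both drug libraries, with limma adjusted p-values of 0.0121, 0.0303, 0.0161 and 0.0113. The AP-1 subunit gene FOSL1 had 3.84 and 4.08 FPKM with drug and 2.38 and 2.76 FPKM in control, and the zinc finger factor gene KLF10 had 17.2 and 18.3 FPKM with drug and 13.4 and 13.8 FPKM in control. These 2 were higher in both drug libraries (limma adjusted p = 0.0205 and 0.0109). Of all genes tested, 23.3% were lower and 40.3% higher in both drug libraries than in both controls. EGR1, an immediate early gene, had 23.4 and 28.0 FPKM with drug and 19.8 and 20.4 FPKM in control, which missed the threshold in limma (adjusted p = 0.063) and passed it as higher in edgeR and DESeq2 on recovered reads (0.0134 and 0.000551). CCND1, LIF and SPHK1 lost their calls with any of the 4 libraries left out, FOS without drug 1 or drug 2, FOSL1 without control 1, drug 1 or drug 2, and KLF10 without control 1. Of 6 other MAP kinase genes tested, for JNK, p38 and ERK5, 0 were called in limma, with 3 of the 6 at an unadjusted p under 0.05, beside 33.1% of all genes tested. EdgeR on recovered reads called MAPK9 and MAPK14 as lower, each with a log2 fold change of -0.17. EGR1, CBL, MAPK9, MAPK14, SERPINA1 and PDGFRB were picked out after their values were seen.

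**Figure D5:**
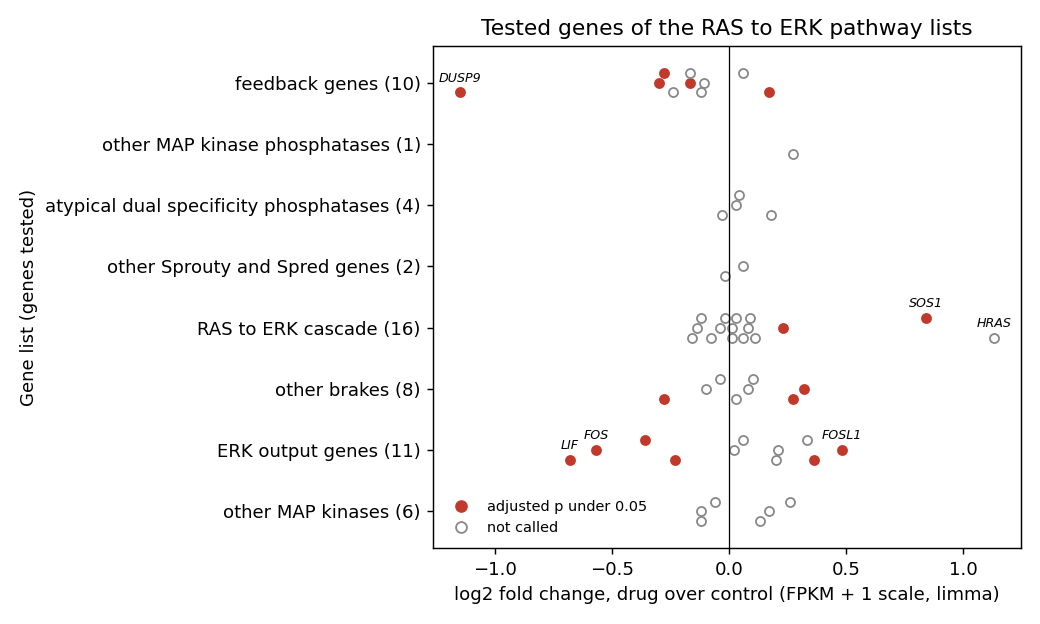
Log2 fold change of drug over control (FPKM + 1 scale) for the tested genes of each list, with filled red circles for a limma adjusted p under 0.05 and the number tested in parentheses. The feedback genes lie mostly left of 0, SOS1 stands at 0.84 in the cascade list, and the ERK output genes lie on both sides.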

How the data were processed

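Messenger RNA of PLC8024 cells was sequenced in 4 libraries. The submitters' processing notes name bcl2fastq and hg38. The aligner was not given in the sources used here, nor were the counter and the test tool. The deposited FPKM values per library were identified from the values. The authors deposited group means of reads divided by a size factor per library, a signal per the file headers, and their own log2 fold changes, p-values and adjusted p-values. From FPKM and group means together, whole reads per library were recovered: 100% of values lay within 0.1 read of a whole number. Groups were compared with limma 3.58.1 (trend) on log2(FPKM + 1). The table held 0 genes at 0 in both controls, so a gene seen in drug libraries alone has no row. Alternatives were a pseudocount of 0.1, no filter, a replicate block, each library left out, TMM-scaled FPKM, and edgeR 4.0.16 and DESeq2 1.42.0 on recovered reads. Tests and read recovery were checked on simulated data. The 10 genes and the lists were chosen with earlier results of these data known; all 10 were named, and listed genes were named where they passed limma or were close relatives. Some genes of the cascade list are not reported here. Positions are from GENCODE 29. No sample was screened as an outlier in groups of 2. Software was Python 3.11.15 with pandas 2.3.3, matplotlib 3.10.9 and numpy 2.4.6, and R 4.3.3.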

Additional observations from a re-analysis of the deposited data

How the results depend on the processing

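All 10 genes kept their direction under every alternative run. DUSP9 was called as lower in all of them, and a pseudocount of 0.1 changed no call of the 10. Limma called 873 genes as higher and 676 as lower, with 1 and 4 of the 10 among them. Without the filter on low values it called 170 genes as higher and 214 as lower, with 0 and 2 of the 10 among them (DUSP9 and DUSP6). With TMM-scaled FPKM 540 genes were higher and 836 lower, with 0 of the 10 higher. DUSP4 joined the genes called as lower (adjusted p = 0.044). This scaling moved the median log2 fold change of all genes tested from 0.036 to 0.002, where edgeR and DESeq2 also had it. The log2 fold change of DUSP1 went from 0.17 to 0.13 with it, and its call was lost. EdgeR called 1233 genes as lower, with 0 of the 10 as higher and 5 as lower, and DESeq2 called 764 genes as higher and 1105 as lower, with 1 (DUSP1) and 5 of the 10 among them. With 1 library left out, 167 to 298 genes were higher and 253 to 315 lower, with 0 of the 10 higher and 1 to 2 lower. With the replicate number as a block, 474 genes were higher, with 0 of the 10 as higher and 3 as lower; DUSP1 (adjusted p = 0.0713) and SPRED2 (0.079) lost their calls, as did RASAL2 (0.0828) and LIF (0.0656) among the listed pathway genes. Without the filter, FOS, FOSL1, KLF10, LIF, PEA15, PEBP1, RASAL2 and SPHK1 also lost theirs (0.0528 to 0.14). The numbers were not shown to pair the libraries, since differences between replicates correlated at 0.0278 across genes between groups. The cause of these changes was not tested, except that leaving out a library leaves fewer samples. DUSP5, DUSP7, SPRY2 and SPRY4 were called under no alternative run.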
